A study of Mus musculus with 8 samples.

Results

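The genes described here are 10 members of the transforming growth factor beta (TGF-beta) and activin pathway, taken by symbol from the 23238 gene symbols counted in every library. They are the ligand genes Tgfb1, Tgfb2, Tgfb3, Inhba and Inhbb, the activin-binding inhibitors Fst and Fstl3, the receptors Tgfbr1 and Tgfbr2, and Tgfbi, a matrix protein gene named for its induction by TGF-beta. Of the 10, 9 were among the 13347 genes with enough reads to be tested, and Tgfb1 was not.

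RNA came from uterine stromal cells of ovariectomized (OVX) mice of strain C57BL/6-ICR, in 4 groups of 2 libraries. Control mice were Atg7f/f, with the autophagy gene Atg7 floxed and intact, and were injected with oil or with estradiol (E2). The deleted mice were Atg7d/d, in which Amhr2cre, which acts in reproductive tract mesenchyme, deleted Atg7, and were likewise given oil or E2. All groups share ovariectomy and the floxed allele, no group carries Cre with Atg7 intact, and the dose, the time after injection, the age and the way the stromal cells were separated are not given in the labels. Nothing says that the libraries of a group came from separate animals, so the p-values reflect the spread of these libraries alone, which may be technical. Library totals were 5458390 to 6951080 counts. Atg7 itself had 20 to 33 counts per library and showed no drop in deleted stroma that passed the test described below. Its log2 fold change of deleted over control was -0.09 ± 0.42 in oil and 0.28 ± 0.44 after estradiol. Reads of 3′ ends can miss a deletion of internal exons, so these counts do not check the genotype.

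TGF-beta and activin ligands are secreted dimers that bind a type II receptor, which then activates a type I receptor, and the pair phosphorylates SMAD2 and SMAD3. Activin A and activin B are dimers of the chains made from Inhba and Inhbb. Follistatin, the product of Fst, and its relative follistatin-like 3 bind activins outside the cell and keep them from their receptors. In the uterus this family is known for roles in the stroma during decidualization, in matrix production and in signals between stroma and epithelium.

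With estradiol, Inhba and Fstl3 rose and Tgfbi fell in both genotypes, and Tgfbr2 rose in control stroma. In deleted stroma Tgfbr2 had the same sign without passing, and its difference between genotypes did not pass either. Apart from Tgfbi in control stroma, each of these calls was lost in at least 1 fit without 1 library. Summed epithelium markers were also lower after estradiol, as given below. Tgfbi moved furthest, 12.1-fold lower in control and 7.17-fold lower in deleted stroma. Inhbb, the member with the most reads after estradiol, and Fst, Tgfbr1, Tgfb2 and Tgfb3 did not pass the test in either genotype. No member passed the test between deleted and control stroma. Levels below are in CPM, a gene's counts relative to the TMM-scaled library size, and fold changes are log2 estradiol over oil or deleted over control, with the standard error, from edgeR's quasi-likelihood test with Benjamini-Hochberg adjustment over all tested genes at 0.05.

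Sequence upstream of the 4 members that passed the estradiol test in at least 1 genotype is shown because estradiol acts through a transcription factor that can bind DNA near gene starts. The bases come from the RefSeq promoter table (GRCm38.p6), cut to those before the gene start in both RefSeq and GENCODE M21, and run 5′ to 3′ on the gene's strand, ending next to the start. Capitals mark GGTCA or TGACC, either arm of the estrogen response element. The stretches are chr13:16011601-16011850 (plus strand) for Inhba, chr10:79777024-79777271 (plus) for Fstl3, chr9:116175364-116175613 (minus) for Tgfbr2 and chr13:56609336-56609522 (plus) for Tgfbi.
Inhba: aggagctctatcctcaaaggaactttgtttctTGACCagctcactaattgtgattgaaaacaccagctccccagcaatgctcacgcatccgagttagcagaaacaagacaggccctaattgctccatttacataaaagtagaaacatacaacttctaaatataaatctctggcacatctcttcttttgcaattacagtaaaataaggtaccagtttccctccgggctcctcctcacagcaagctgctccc
Fstl3: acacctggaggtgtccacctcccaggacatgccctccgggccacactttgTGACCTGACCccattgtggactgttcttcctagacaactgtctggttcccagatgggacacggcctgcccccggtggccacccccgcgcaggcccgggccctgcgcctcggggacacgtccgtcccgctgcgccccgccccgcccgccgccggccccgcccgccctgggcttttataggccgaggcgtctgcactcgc
Tgfbr2: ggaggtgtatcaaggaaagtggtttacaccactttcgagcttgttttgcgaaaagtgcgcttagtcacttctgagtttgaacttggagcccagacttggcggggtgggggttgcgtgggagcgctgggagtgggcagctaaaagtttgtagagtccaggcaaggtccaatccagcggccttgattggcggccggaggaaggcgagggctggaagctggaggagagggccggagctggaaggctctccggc
Tgfbi: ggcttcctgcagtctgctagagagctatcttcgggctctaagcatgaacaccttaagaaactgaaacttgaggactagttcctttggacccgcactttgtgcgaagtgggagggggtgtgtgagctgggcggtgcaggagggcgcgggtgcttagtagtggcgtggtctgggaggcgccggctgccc
In these stretches Inhba has 1 arm and Fstl3 has 2, and Tgfbr2 and Tgfbi have none. In windows of 250 bases before and 50 after the RefSeq start, an arm was present for 4 of the 8 members in the table (Tgfb1, Inhba, Fstl3 and Tgfbr1) and in 40.5% of all 32851 windows. This search for arms was added after the data were seen. The full element, GGTCA and TGACC with 3 free bases between them on either strand, was in 0.0700% of all windows, the AP-1 site TGANTCA in 7.81% and the palindromic SMAD site GTCTAGAC in 0.213%. None of these 3 was in a member's window, which says only that those letters are not there.

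The TGF-beta ligand genes showed no estradiol response that passed the test. Tgfb1 (chromosome 7, 25687002 to 25705077, plus strand, GENCODE M21 on mm10), which encodes the most studied TGF-beta, had almost no reads. With oil its counts were 0 and 1 in control and 4 and 2 in deleted stroma, and with estradiol they were 1 and 3, and 0 and 5. A count of 0 allows up to 0.473 CPM in control oil library 1 and up to 0.540 CPM in deleted estradiol library 1 (3 counts, counting error only). Its neighbours B9d2 and Ccdc97 had 147 to 188 and 446 to 608 counts per library. The reads of this library type mark only the 3′ ends of transcripts, and the sources used here do not give the annotation of the Tgfb1 end used in counting.

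Tgfb2 (chromosome 1, 186622792 to 186705989, minus strand), the TGF-beta ligand gene with the highest level, was at 27.9 and 41.4 CPM in the control oil libraries and at 56.4 and 46.7 CPM after estradiol. In deleted stroma it was at 46.9 and 48.5 CPM in oil and at 83.7 and 54.7 CPM after estradiol. The estradiol libraries lay above the oil libraries of their genotype in both cases. How many of all tested genes separate in this way was not counted, here or for the members below. The log2 fold changes of 0.57 ± 0.26 (adjusted p = 0.130) and 0.53 ± 0.26 (adjusted p = 0.164) did not pass, with 95% intervals of -0.02 to 1.17 and -0.06 to 1.13. Tgfb3 (chromosome 12, 86056745 to 86079041, minus strand) was at 14.4 and 24.6 CPM in control oil and at 17.2 and 17.7 CPM in control estradiol. It was at 20.5 and 25.7 CPM in deleted oil and at 16.7 and 18.6 CPM in deleted estradiol. The oil and estradiol libraries overlapped in control stroma, and the fold changes of -0.16 ± 0.28 (adjusted p = 0.700) and -0.39 ± 0.28 (adjusted p = 0.339) did not pass. Without control oil library 2 the control value turned to 0.25.

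**Figure D1:**
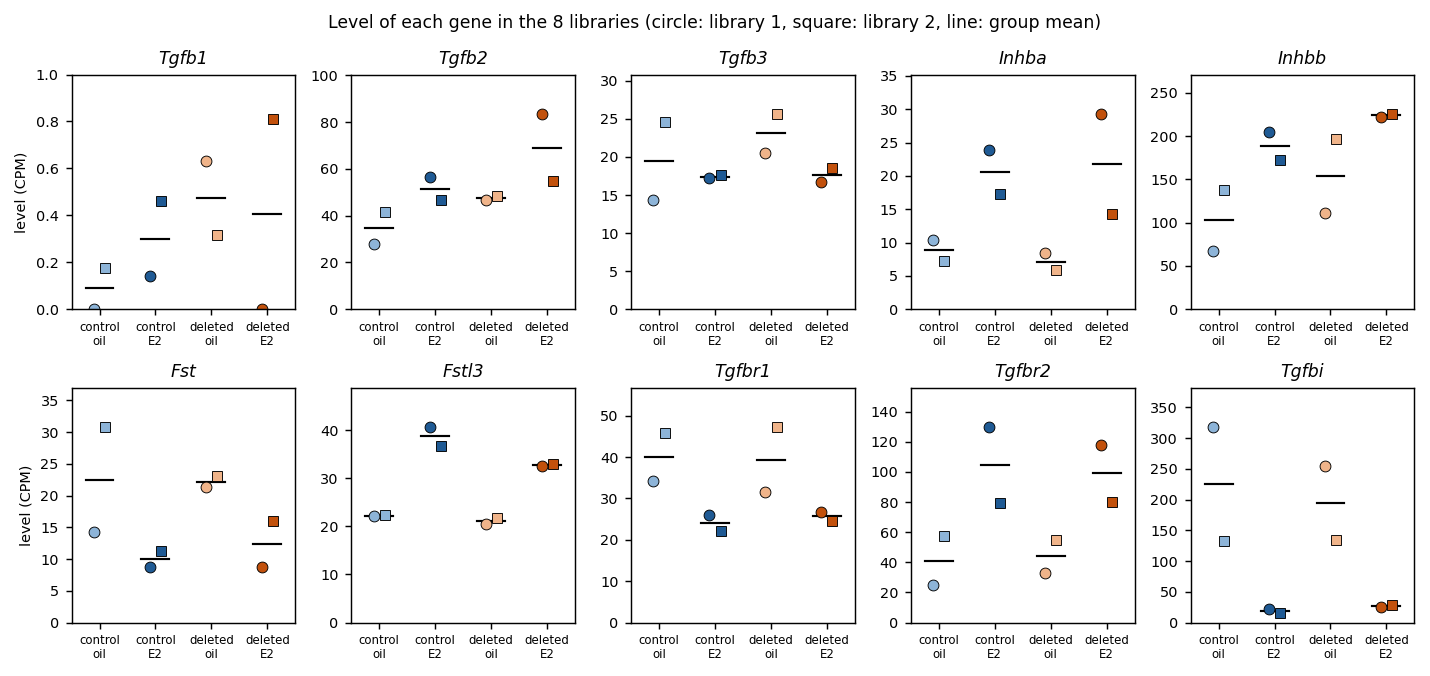
Level in CPM (linear axes from 0) of the 10 genes in each library, by genotype and treatment, with circles for library 1, squares for library 2 and a line at the mean of 2. Tgfbi is at 133 to 318 CPM in the oil libraries and at 15.2 to 28.3 CPM after estradiol, while Tgfb1 stays under 1 CPM throughout.

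Among the activin chains, Inhba rose with estradiol in both genotypes. Inhba (chromosome 13, 16011851 to 16031621, plus strand), the chain of activin A, was at 10.4 and 7.26 CPM in control oil and at 23.9 and 17.2 CPM in control estradiol. In deleted stroma it was at 8.38 and 5.83 CPM in oil and at 29.3 and 14.2 CPM after estradiol. All 4 estradiol libraries lay above all 4 oil libraries. The log2 fold change was 1.21 ± 0.39 in control (adjusted p = 0.0445) and 1.61 ± 0.40 in deleted stroma (adjusted p = 0.0201), or 2.32-fold and 3.05-fold. With a control p so near the threshold, the call was lost without control oil library 2 (0.95, adjusted p = 0.149) or control estradiol library 1 (0.96, adjusted p = 0.217). It ended also without control estradiol library 2 (adjusted p = 0.0760) or without deleted oil library 1 or 2 (0.0503 and 0.0501), which are fits with fewer libraries. In deleted stroma the call was lost without deleted estradiol library 1 (1.01, adjusted p = 0.168), deleted oil library 1 (0.0573) or deleted oil library 2 (0.106).

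Inhbb (chromosome 1, 119415465 to 119422248, minus strand), the chain of activin B, was at 67.4 and 138 CPM in control oil and at 204 and 173 CPM in control estradiol. It was at 111 and 197 CPM in deleted oil and at 222 and 226 CPM in deleted estradiol. The estradiol libraries were above the oil libraries in each genotype, but the oil libraries lay far apart. Fold changes were 0.88 ± 0.35 (adjusted p = 0.0864, 95% interval 0.09 to 1.67) and 0.54 ± 0.35 (adjusted p = 0.281, -0.24 to 1.32) on the log2 scale, and neither passed. Without control oil library 2, the higher of the pair, the control value was 1.45 (adjusted p = 0.00790). Inhbb had more reads than Inhba in every library, from 6.47 to 33.8 Inhbb reads per Inhba read, and 3′-end reads need no correction for transcript length.

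Of the activin inhibitors, Fstl3 rose in both genotypes and Fst did not pass the test in either. Fstl3 (chromosome 10, 79777272 to 79782630, plus strand), follistatin-like 3, was at 22.1 and 22.3 CPM in control oil and at 40.6 and 36.7 CPM in control estradiol. It was at 20.4 and 21.7 CPM in deleted oil and at 32.6 and 33.0 CPM in deleted estradiol. The libraries of each group lay close together, and the estradiol libraries were all above the oil libraries. It rose by 0.80 ± 0.18 in control (adjusted p = 0.0118) and by 0.64 ± 0.18 in deleted stroma (adjusted p = 0.0336) on the log2 scale, 1.74-fold and 1.56-fold. The control call was lost without control estradiol library 1 (0.73, adjusted p = 0.0803). The deleted call was lost without any 1 of the 4 deleted libraries (adjusted p from 0.103 to 0.152) or either control estradiol library (0.0563 and 0.0562), with the fold change between 0.59 and 0.69. It was lost also in DESeq2 (0.61, adjusted p = 0.0898) and with no filter on low counts (0.64, adjusted p = 0.0593).

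Fst (chromosome 13, 114452290 to 114458951, minus strand), follistatin, was at 14.2 and 30.8 CPM in control oil and at 8.80 and 11.2 CPM in control estradiol. It was at 21.3 and 23.0 CPM in deleted oil and at 8.82 and 16.0 CPM in deleted estradiol. Oil libraries were above the estradiol libraries of their genotype. The log2 fold change of -1.16 ± 0.40 in control (adjusted p = 0.0560, 95% interval -2.07 to -0.26) did not pass, nor did -0.83 ± 0.40 in deleted stroma (adjusted p = 0.154, -1.73 to 0.07). The control value passed if control oil library 1 was omitted, at -1.60 (adjusted p = 0.00880). Without control oil library 2 it was -0.54. With all libraries, the control value of Fst passed also in DESeq2.

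Reads of both inhibitors per read of both activin chains were counted in each library as a description, with no test. In control stroma the ratio was 0.467 and 0.365 with oil and 0.217 and 0.252 with estradiol. In deleted stroma it was 0.349 and 0.221 in oil and 0.165 and 0.204 after estradiol. The estradiol libraries were below the oil libraries of their genotype, although deleted oil library 2 (0.221) lay within the range of the control estradiol libraries. Ratios of single genes were added to the planned ratio. Fst reads per Inhba read ran from 1.36 to 4.24 in the 4 oil libraries and from 0.301 to 1.13 in the 4 estradiol libraries. This separation follows from the lower Fst and higher Inhba levels given above and adds no separate support. Fstl3 reads per Inhbb read did not separate the treatments, at 0.110 to 0.328 in oil and 0.146 to 0.213 after estradiol. Fst per Inhbb read and Fstl3 per Inhba read were not counted.

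Of the receptor genes, Tgfbr2 rose in control stroma, and Tgfbr1 had negative fold changes that did not pass. Tgfbr2 (chromosome 9, 116084293 to 116175360, minus strand), the type II receptor that binds TGF-beta, was at 24.6 and 57.5 CPM in control oil and at 130 and 79.3 CPM in control estradiol. It was at 32.9 and 55.1 CPM in deleted oil and at 118 and 80.2 CPM in deleted estradiol. All 4 estradiol libraries were above all 4 oil libraries, with a wide spread in each group. It rose by 1.35 ± 0.43 on the log2 scale in control stroma (adjusted p = 0.0413). The value of 1.17 ± 0.43 in deleted stroma (adjusted p = 0.0744, 95% interval 0.21 to 2.13) did not pass, and the difference between the genotypes was -0.18 ± 0.60 (interval -1.53 to 1.16). The control call was lost without control oil library 1 (0.90, adjusted p = 0.119), control estradiol library 1 (0.96, 0.234), control estradiol library 2 (0.0575) or either deleted estradiol library (0.0630). The deleted value passed without either control oil library (1.17 and 1.18, adjusted p = 0.0178 each), in DESeq2 (0.0252) and with no filter on low counts (0.00932).

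Tgfbr1 (chromosome 4, 47353222 to 47414931, plus strand), the type I receptor that carries the signal to the SMADs, was at 34.2 and 45.9 CPM in control oil and at 26.0 and 22.1 CPM in control estradiol. It was at 31.5 and 47.3 CPM in deleted oil and at 26.8 and 24.6 CPM in deleted estradiol. All oil libraries were above all estradiol libraries. The fold changes of -0.73 ± 0.25 (adjusted p = 0.0553, 95% interval -1.30 to -0.16) and -0.62 ± 0.25 (adjusted p = 0.104, -1.18 to -0.05) on the log2 scale did not pass. Leaving out control oil library 1 let the control value pass (-0.90, adjusted p = 0.0349), as did leaving out deleted oil library 1 or 2 (0.0447 and 0.0456).

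Tgfbi (chromosome 13, 56609523 to 56639562, plus strand), which encodes a secreted matrix protein that binds collagen and integrins, fell the most. It was at 318 and 133 CPM in control oil and at 22.1 and 15.2 CPM in control estradiol. In deleted stroma it was at 255 and 135 CPM in oil and at 26.1 and 28.3 CPM after estradiol. Every oil library was above every estradiol library. The log2 fold change was -3.59 ± 0.46 in control (adjusted p = 0.00137) and -2.84 ± 0.45 in deleted stroma (adjusted p = 0.00369). In control stroma the call held in all 8 fits without 1 library, at -4.12 to -2.80. In deleted stroma it ended without deleted estradiol library 1 (-2.78, adjusted p = 0.0504).

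**Figure D2:**
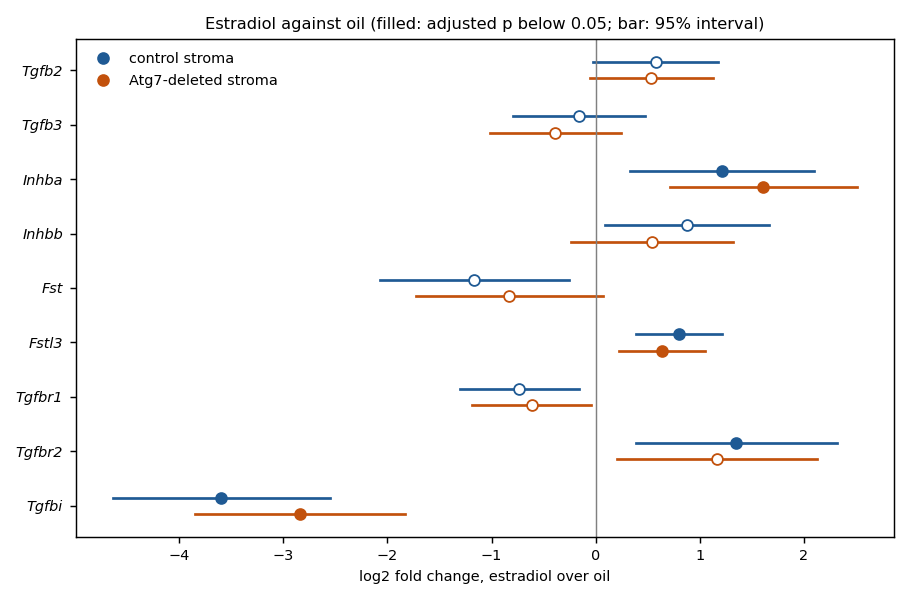
Log2 fold change of estradiol over oil for the 9 tested genes in control stroma (blue) and Atg7-deleted stroma (orange), with 95% intervals and filled points where the adjusted p was below 0.05. Tgfbi lies at -3.59 and -2.84, and each of the other genes has the same sign in both genotypes.

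In control stroma 3 members rose and 1 fell, beside 15.8% and 14.0% of all tested genes. In deleted stroma 2 rose and 1 fell, beside 13.1% and 11.2% of all tested genes. With so few members the counts set the list apart in no way that was tested. All 9 members had the same sign in both genotypes, as did 85.9% of all tested genes, and these comparisons share no library. The median log2 fold change of all tested genes was 0.01 in control and 0.02 in deleted stroma.

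The labelled cell type was checked against markers, because the oil libraries held much RNA of epithelium. The 16 epithelium markers summed to 18190 and 6188 CPM in control oil and to 1420 and 3029 CPM in control estradiol. In deleted stroma they summed to 11356 and 4837 CPM in oil and to 1438 and 1952 CPM after estradiol. None of the 16 was at 0 in any library, 8 fell in control and 5 in deleted stroma, and none rose. Of all tested genes, 14.0% and 11.2% fell and 15.8% and 13.1% rose in control and deleted stroma. The 14 fibroblast and stroma markers summed to 2355 to 3413 CPM in oil and 6458 to 9264 CPM after estradiol. Of these sums, Col1a1, Col1a2 and Col3a1 made up 121 to 332 CPM in oil and 3694 to 5933 CPM after estradiol, and the other 11 markers 2235 to 3081 and 2764 to 3331 CPM. Of the 14, 8 rose in each genotype and Dcn, also one of the secreted inhibitors described below, fell in control stroma. The 10 smooth muscle markers summed to 2472 to 6143 CPM in oil and 8555 to 10988 CPM after estradiol. Of these, 6 rose in control stroma, and 5 rose and 1 fell in deleted stroma. The sums do not speak for every marker. Mean Smtn went from 126 to 92.2 CPM in control and from 177 to 90.5 CPM in deleted stroma. Mean Lmod1 went from 157 to 131 and from 198 to 142 CPM. Macrophage markers summed to 128 to 185 CPM in oil and 120 to 267 CPM after estradiol. The 5 erythroid markers summed to 163 to 241 CPM in oil and 276 to 495 CPM after estradiol, and 4 of them rose in control and none in deleted stroma. Of the mesothelium markers only Wt1, which the uterine stroma also expresses, was tested, and it fell in control stroma by 0.92 on the log2 scale (adjusted p = 0.0172). In bulk RNA, fewer cells of a type and less RNA per cell cannot be told apart.

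Some member levels moved with the epithelium sum within the oil groups. There, library 1 held the higher epithelium sum in each genotype, and Tgfbi and Inhba were higher in it than in library 2. Tgfb2, Tgfb3, Inhbb, Fst, Tgfbr1 and Tgfbr2 were lower in library 1 than in library 2 of both oil groups. So was Fstl3, by little, at 22.1 against 22.3 CPM in control and 20.4 against 21.7 CPM in deleted oil. In the estradiol groups library 2 held the higher epithelium sum, and Inhba was lower in it in both genotypes, while Tgfbi was lower in control and higher in deleted stroma. Across treatments the epithelium sum was lower after estradiol, where Inhba was higher and Tgfbi lower. The part of these marker changes in the estradiol effects was not tested. A fit without library 1 of both oil groups was chosen after the data were seen and left 1 library in each oil group. It did not remove the epithelium difference. The oil libraries kept had epithelium sums of 6188 CPM (control) and 4837 CPM (deleted), above the 1420 to 3029 CPM after estradiol. In this fit the log2 fold changes of Tgfbi were -2.85 in control and -2.32 in deleted stroma. Inhba was at 1.48 and 1.89. Its level was lower in the oil libraries kept than in those left out, so larger rises followed from the choice of libraries.

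In that fit Tgfbr2 was at 0.85 in control stroma (adjusted p = 0.0860) and at 0.84 in deleted stroma (adjusted p = 0.0955), so its call was lost. Fstl3 was at 0.77 (adjusted p = 0.0287) and 0.59 (adjusted p = 0.0816, call lost). Tgfbr1 was at -0.95 in control and -0.89 in deleted stroma, and Fst at -1.64 in control stroma. Both genes had lower levels in the oil libraries left out than in those kept, so larger falls followed from the choice of libraries. Inhbb, also lower in the oil libraries left out, was at 0.43 and 0.18.

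**Figure D3:**
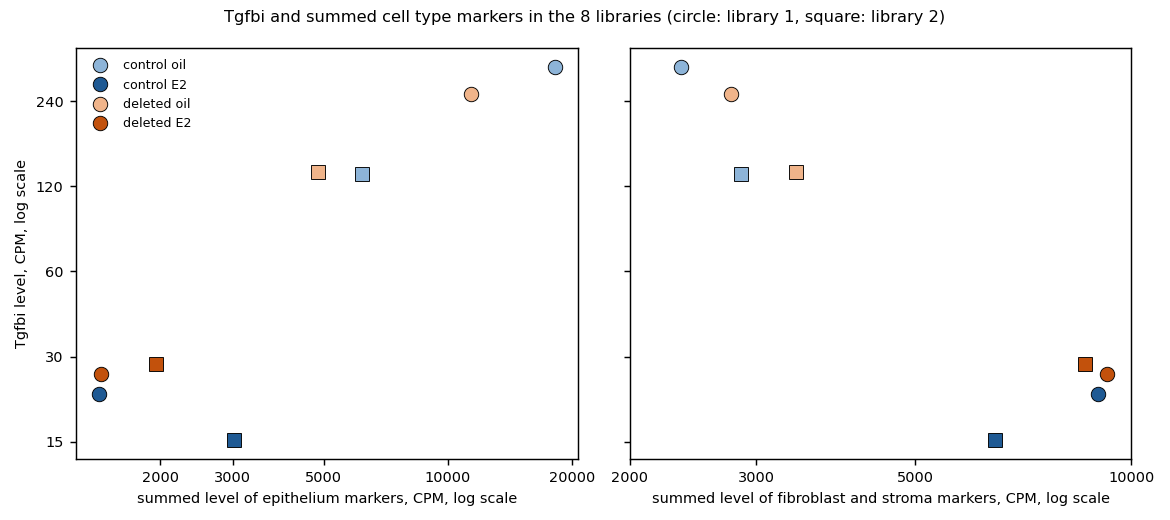
Tgfbi level against the summed level of 16 epithelium markers (left) and of 14 fibroblast and stroma markers (right) in the 8 libraries, both in CPM on log scales. The oil libraries have high Tgfbi, high epithelium sums and low fibroblast sums, and within each oil group library 1 has the higher Tgfbi and the higher epithelium sum.

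The other genes of the pathway were described by 6 lists, chosen with earlier results of these data known. Among 9 other ligands of the family 4 were tested, and 1 fell in each genotype, where 14.0% and 11.2% of all tested genes fell. Gdf15, a stress-induced member of the family, was at 7316 and 2554 CPM in control oil and at 134 and 313 CPM after estradiol, a log2 fold change of -4.47 ± 0.60 (adjusted p = 0.00166). In deleted stroma it went from 3212 and 1814 to 150 and 188 CPM, at -3.89 ± 0.59 (adjusted p = 0.00315). Like Tgfbi, it was higher in library 1 of both oil groups. Inha, the inhibin alpha chain, had at most 1.95 CPM, and Mstn, Inhbc and Inhbe had no read.

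Of 13 tested genes of latency and activation, 2 rose and 2 fell in control stroma, and 1 rose and 1 fell in deleted stroma, counts near those of all tested genes (15.8% and 14.0%, and 13.1% and 11.2%). The list medians were 0.01 and -0.17 on the log2 scale. Fbn1, the fibrillin that holds latent TGF-beta in the matrix, rose by 1.05 ± 0.24 (adjusted p = 0.0115) and 1.65 ± 0.24 (adjusted p = 0.00275), from 20.5 to 27.7 CPM in the oil libraries to 48.1 to 99.3 CPM after estradiol. Its control call was lost without control estradiol library 1 (adjusted p = 0.0669). Itgb1, a common integrin beta chain, rose in control stroma by 0.67 ± 0.20 (adjusted p = 0.0330) and was at 0.42 ± 0.20 in deleted stroma (adjusted p = 0.147). That call was lost without control oil library 1 (0.0992), control estradiol library 1 (0.126) or 2 (0.115), or deleted estradiol library 1 (0.0605) or 2 (0.0613). Itgb6, the beta chain of an epithelial integrin that activates TGF-beta, fell from 15.9 to 51.0 CPM in oil to 6.48 to 10.9 CPM, with fold changes of -1.97 ± 0.49 (adjusted p = 0.0168) and -1.76 ± 0.50 (adjusted p = 0.0339). Its control call was lost without control oil library 1 (-1.05, adjusted p = 0.0890), control estradiol library 1 (0.121) or 2 (0.0541). Its deleted call was lost without deleted oil library 1 (-1.24, adjusted p = 0.182) or either deleted estradiol library (0.175 and 0.147). Itgav, the alpha chain that pairs with Itgb6, fell in control stroma by 1.37 on the log2 scale (SE 0.45, adjusted p = 0.0483). It was at -0.36 without control oil library 1 (adjusted p = 0.428), and the call was lost also without control estradiol library 1 (0.241) or 2 (0.106) or deleted estradiol library 1 (0.0846) or 2 (0.0848). Itgb6 and Itgav, like the epithelium markers, were higher in library 1 than in library 2 of both oil groups.

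Of 6 tested other receptors and co-receptors, 1 rose in control and 1 fell in deleted stroma. Beside these counts, 15.8% of all tested genes rose in control and 11.2% fell in deleted stroma. Acvr2b, a type II receptor for activins, was at 9.48 and 12.4 CPM in deleted oil and at 4.68 and 4.37 CPM in deleted estradiol, -1.27 ± 0.32 (adjusted p = 0.0212). Its value in control stroma was -0.73 ± 0.32 (adjusted p = 0.112). The deleted call was lost without any 1 of the 4 deleted libraries (adjusted p from 0.0514 to 0.119). Eng, a TGF-beta co-receptor of endothelium, rose in control stroma by 0.66 ± 0.19 (adjusted p = 0.0297) and was at 0.30 ± 0.19 in deleted stroma (adjusted p = 0.277). That call was lost without control oil library 1 (adjusted p = 0.0803), control estradiol library 1 (0.136) or control estradiol library 2 (0.0899).

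Among the 12 tested SMAD mediators and intracellular inhibitors, 4 fell in each genotype, where 14.0% and 11.2% of all tested genes fell. None rose, where 15.8% and 13.1% of all tested genes did. The list medians were -0.51 and -0.42 on the log2 scale. Whether the list as a whole differs from all tested genes was not tested. Those that fell were Skil and Tgif1, which repress SMAD-driven transcription, Smad3, which carries the signal of TGF-beta and activin to the nucleus, and Smurf2, a ubiquitin ligase that acts on SMADs and the receptors. Tgif1 went from 413 and 462 to 272 and 301 CPM in control and from 467 and 423 to 250 and 238 CPM in deleted stroma. Its fold changes were -0.61 ± 0.17 (adjusted p = 0.0237) and -0.87 ± 0.17 (adjusted p = 0.00759) on the log2 scale. Smad3 went from 66.6 and 59.1 to 38.3 and 44.0 CPM in control and from 59.1 and 53.3 to 30.2 and 30.1 CPM in deleted stroma, at -0.61 ± 0.18 (adjusted p = 0.0312) and -0.90 ± 0.18 (adjusted p = 0.00952). Skil was at -0.78 ± 0.18 (adjusted p = 0.0139) and -0.66 ± 0.19 (adjusted p = 0.0313), and Smurf2 at -0.65 ± 0.19 (adjusted p = 0.0334) and -0.73 ± 0.19 (adjusted p = 0.0261).

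These SMAD calls rested on few libraries. All 4 control calls were lost without control estradiol library 1 (adjusted p from 0.112 to 0.212) or control estradiol library 2 (0.0517 to 0.0829). Those of Skil, Smad3 and Smurf2 were lost without control oil library 1 (0.0596 to 0.108), and those of Tgif1, Smad3 and Smurf2 without either deleted estradiol library (0.0544 to 0.0666). All 4 deleted calls were lost without deleted oil library 1 (0.0538 to 0.159), deleted estradiol library 1 (0.0686 to 0.165) or deleted estradiol library 2 (0.0729 to 0.153). That of Skil ended also without deleted oil library 2 (0.0689) or control estradiol library 1 or 2 (0.0512 and 0.0517). Without library 1 of both oil groups, 5 of the 12 fell in each genotype.

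Of 8 tested other secreted inhibitors, 2 rose and 2 fell in control stroma, and 2 rose and 1 fell in deleted stroma. Of all tested genes, 15.8% rose and 14.0% fell in control, and 13.1% rose and 11.2% fell in deleted stroma. With so few genes the counts set the list apart in no way that was tested. Bgn, biglycan, a small proteoglycan that binds TGF-beta, went from 93.9 and 116 to 235 and 252 CPM in control and from 111 and 135 to 258 and 285 CPM in deleted stroma. It rose by 1.21 ± 0.19 (adjusted p = 0.00258) and 1.14 ± 0.19 (adjusted p = 0.00405) on the log2 scale, and both calls held in all 8 fits without 1 library. Fstl1, a secreted glycoprotein related to follistatin, rose by 1.54 ± 0.33 (adjusted p = 0.00921) and 1.26 ± 0.32 (adjusted p = 0.0228). Its control call was lost without control estradiol library 1 (1.15, adjusted p = 0.0722), and its deleted call without deleted oil library 1 (0.132) or deleted estradiol library 1 (0.144) or 2 (0.0705).

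Wfikkn2, a secreted protein that binds the ligands made from Mstn and Gdf11, was at 9.78 and 37.9 CPM in control oil and at 1.26 and 4.0 CPM after estradiol. It was at 25.8 and 43.0 CPM in deleted oil and at 3.60 and 4.53 CPM after estradiol, and fell in both genotypes, with fold changes of -3.18 ± 0.70 (adjusted p = 0.0104) and -3.07 ± 0.67 (adjusted p = 0.0124). The Wfikkn2 calls were lost without control estradiol library 1 (-2.56, adjusted p = 0.0819) in control, and in deleted stroma without deleted oil library 2 (0.0546) or deleted estradiol library 1 (0.110) or 2 (0.0817). Dcn, decorin, another proteoglycan that binds TGF-beta and also a stroma marker, fell in control stroma by 0.65 on the log2 scale (SE 0.18, adjusted p = 0.0268) and was at -0.38 ± 0.18 in deleted stroma (adjusted p = 0.151). The Dcn call was lost without control oil library 1 (0.105), control estradiol library 1 (0.117) or 2 (0.136), or deleted estradiol library 1 (0.0599) or 2 (0.0601).

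All 21 target genes of TGF-beta were tested, of which 10 rose and 3 fell in control stroma and 8 rose and 3 fell in deleted stroma. Of all tested genes, 15.8% rose and 14.0% fell in control and 13.1% rose and 11.2% fell in deleted stroma, so the 3 that fell lay near that share in control stroma. The list medians were 0.92 and 0.59 on the log2 scale. Because the list was chosen with earlier results known, these counts and medians are a description. They set the list apart in no way that was tested. The collagen genes Col1a1, Col1a2 and Col3a1 led the list, with Fn1, which encodes fibronectin. Fn1 was at 150 and 144 CPM in control oil and 361 and 347 CPM after estradiol, and at 150 and 153 CPM in deleted oil and 520 and 467 CPM after estradiol. Its fold changes were 1.27 ± 0.16 (adjusted p = 0.00128) and 1.70 ± 0.16 (adjusted p = 0.000766) on the log2 scale. Col3a1 rose by 4.52 ± 0.53 (adjusted p = 0.000976) and 4.39 ± 0.52 (adjusted p = 0.00150), and Col1a2 by 4.65 ± 0.50 (adjusted p = 0.000796) and 4.14 ± 0.48 (adjusted p = 0.00141). The calls of these 4 genes held in all 8 fits without 1 library in both genotypes.

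Of the 10 targets that rose in control stroma, Col1a1, Col1a2 and Col3a1 are also fibroblast markers and Acta2 and Tagln also smooth muscle markers, sets whose sums were higher after estradiol. The 3 targets that fell were Cdkn1a, a cell cycle inhibitor, and the transcription factor genes Tsc22d1 and Junb, named after their values were seen. Over the fits without 1 library, 6 to 13 targets rose and 1 to 4 fell in control stroma, and 5 to 11 rose and 1 to 4 fell in deleted stroma. The fewest rose without either control estradiol library in control stroma (6), and without deleted oil library 1 or deleted estradiol library 1 in deleted stroma (5). Without library 1 of both oil groups, 8 rose and 4 fell in control and 10 rose and 5 fell in deleted stroma.

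**Figure D4:**
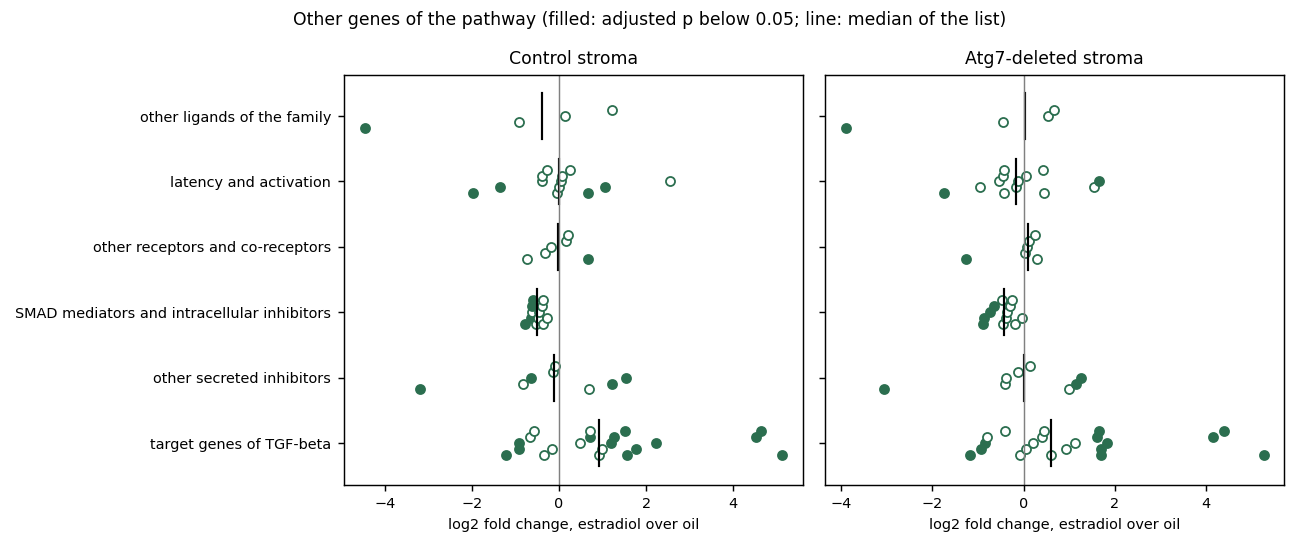
Log2 fold change of estradiol over oil for each tested gene of the 6 pathway lists in control (left) and Atg7-deleted stroma (right), with filled points where the adjusted p was below 0.05 and a line at each list's median. The SMAD list lies below 0 in both genotypes, with medians of -0.51 and -0.42, and the target list has medians of 0.92 and 0.59. The lists were chosen with earlier results known, and none was tested as a set.

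No member passed the test for Atg7 deletion in either treatment. Of all tested genes, 0 passed in oil (0%), 0 after estradiol (0%), 0 for the average of both (0%) and 0 for the difference of the estradiol effects between genotypes (0%). In edgeR, 339, 403, 543 and 210 genes had an unadjusted p below 0.05 in these comparisons, and DESeq2 called 0, 0, 3 and 0. Among the 9 members the fold changes with deletion ran from -0.32 (Inhba) to 0.59 (Inhbb) in oil and from -0.24 (Fstl3) to 0.54 (Tgfbi) after estradiol, on the log2 scale. Their 95% intervals reached from -1.25 to 1.37 in oil and from -1.02 to 1.54 after estradiol, and each interval included 0.

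Some members had groups that did not overlap without passing the test. The share of all tested genes whose groups did not overlap was not counted, so no deletion effect is read from this. Tgfb2 was at 46.9 and 48.5 CPM in deleted oil, above the 27.9 and 41.4 CPM of control oil, at 0.46 ± 0.27 on the log2 scale. Its average over both treatments, 0.44 ± 0.19, was the only member value with an unadjusted p below 0.05, at 0.0413 (edgeR adjusted p = 0.999). Fstl3 was lower in deleted than in control stroma in both treatments, at -0.08 ± 0.18 in oil and -0.24 ± 0.18 after estradiol on the log2 scale. After estradiol Inhbb was at 222 and 226 CPM in deleted stroma, above 204 and 173 CPM in control, and Tgfbi at 26.1 and 28.3 CPM, above 22.1 and 15.2 CPM. The Inhbb difference after estradiol was 0.25 ± 0.34 and that of Tgfbi 0.54 ± 0.44 on the log2 scale.

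The estradiol effects on the members did not differ between genotypes past the threshold, with differences from -0.34 (Inhbb) to 0.75 (Tgfbi) on the log2 scale. For Tgfbi the difference of 0.75 ± 0.60 had a 95% interval of -0.61 to 2.11, and without control oil library 1 it was -0.05. The Inhbb difference turned to 0.065 without control oil library 1 and to 0.13 without deleted oil library 2, and the Inhba value for deletion in oil to 0.0069 without control oil library 1. The Tgfbi value for deletion in oil, -0.21 ± 0.41, turned to 0.60 without control oil library 1 and to 0.18 without deleted oil library 2. These comparisons share libraries with the estradiol comparisons above and are no independent measure of them.

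**Figure D5:**
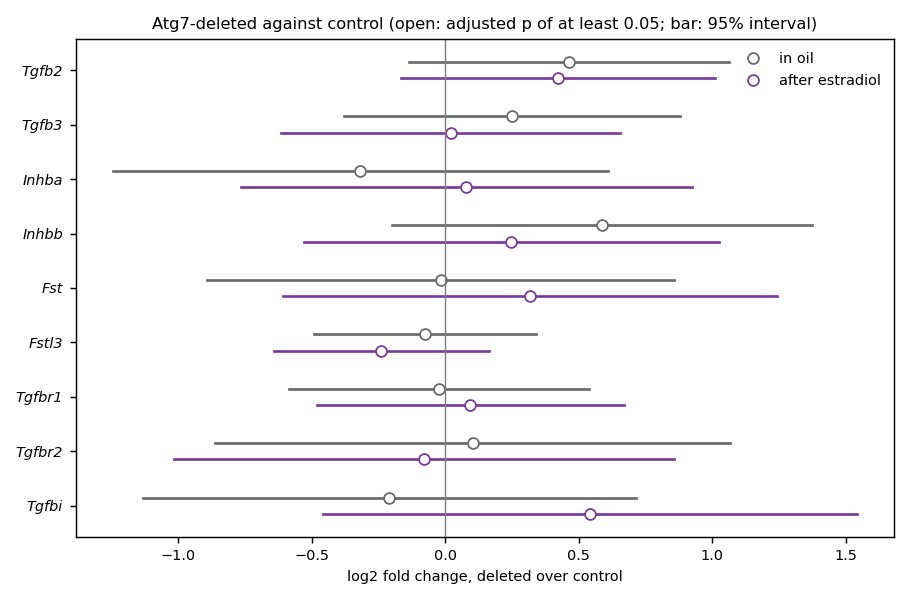
Log2 fold change of Atg7-deleted over control stroma for the 9 tested genes in oil (grey) and after estradiol (purple), with 95% intervals. All points are open because no adjusted p was below 0.05, and they lie between -0.32 and 0.59.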

How the data were processed

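The authors deposited raw counts per gene symbol for each of the 8 libraries, with no normalization, as the values show (whole numbers with unequal totals). Per the labels' protocols, 500 ng of Trizol-extracted total RNA per library went into a QuantSeq kit, which reads the 3′ ends of transcripts. Bowtie2, edgeR and the build mm10 are named, without roles, in the submitters' processing notes. For the read counter and the annotation, the sources used here give no name. Of 23282 lines, those of 35 repeated symbols were reduced to the line with the highest total, which left out 0.0973% of counts.

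Genes were kept with filterByExpr (minimum count 10, minimum total 15), which left 13347 genes with 99.9% of counts. Counts were scaled by the trimmed mean of M-values (TMM, factors 0.918 to 1.03) and tested with edgeR 4.0.16 quasi-likelihood F-tests (R 4.3.3) in 1 model with a mean per group, at a Benjamini-Hochberg adjusted p below 0.05. The 6 contrasts were estradiol within each genotype, deletion within each treatment, the average deletion effect and the interaction. The model had 4 residual and 5.08 prior degrees of freedom, and a biological coefficient of variation of 21.8%. Floors of 3 counts cover counting error only. The script was tested on simulated counts with known changes. Alternatives were other scalings and filters, DESeq2 1.42.0, a replicate block, fits of only the groups compared, and each library left out.

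The members, the lists and the motifs were chosen with earlier results of these data known, and the rule for naming genes took all members, for each pathway list and contrast the genes of smallest adjusted p, up to 4, and the 3 genes most like each member. Gene coordinates are from GENCODE M21 and upstream sequence from RefSeq (GRCm38.p6), in which 8 of the 10 members matched. The 2 libraries of each group differed by 8.15 to 44.2 times the sampling noise (chi-square per degree of freedom), so none was counted as a copy.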

Additional observations from a re-analysis of the deposited data

How the results depend on the processing

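With 2 libraries a group, leaving out 1 rests on the assumption that the lone sample varies like the other groups. Of 66 fold changes of named genes under 17 alternatives, 29 stayed on their side of the threshold with their sign in all, 26 lost a call under at least 1, 6 gained one and 5 changed sign. The members called in control stroma, 4 in all, were 7 with no filter on low counts (adding Inhbb, Fst and Tgfbr1) and 1 (Tgfbi) when only the groups compared were fitted. DESeq2 called 6 in control stroma, adding Inhbb and Fst. Scaling by DESeq2 size factors gave 5, with Fst and Tgfbr1 in place of Inhba. Leaving out 1 library gave 1 to 5. In deleted stroma DESeq2 and the fit with no filter called Tgfbr2 in place of Fstl3, and 3 members became 5 when only the groups compared were fitted and 0 to 4 without 1 library. Over all genes, 3978 calls in control stroma became 2305 when only the groups compared were fitted and 1505 to 4168 without 1 library, and 3242 calls in deleted stroma became 740 to 4345. For the average deletion effect, 0 calls became 3 in DESeq2, 4 with no filter and 0 to 1 without 1 library. Counts of 0 members in the deletion and interaction comparisons held in all alternatives that could be fitted, the last 2 comparisons having no fit of only the groups compared.

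The sign changed for Tgfb3 with estradiol in control stroma, -0.47 to 0.25 without 1 library, for Tgfbi with deletion in oil, -0.74 to 0.60 without 1 library and 0.019 without library 1 of both oil groups, for the Tgfbi interaction, -0.051 to 1.28, for the Inhbb interaction, -0.91 to 0.13, and for Inhba with deletion in oil, -0.60 to 0.0069, each without 1 library. With estradiol, no tested member changed sign under another scaling, and other scalings were run on deletion and interaction values only where the text names the gene. The DESeq2 size factors ended the Inhba call in control stroma (adjusted p = 0.0531), and scaling by library totals that of Tgfbr2 (0.0514). The causes were not tested. The labels do not say whether the replicate numbers pair the samples. Across genes, library 1 minus library 2 correlated at 0.494 between both oil groups and at 0.230 between both estradiol groups. Between treatments the correlations ran from -0.231 (control oil and control estradiol) to -0.00907 (deleted oil and deleted estradiol). Whether libraries of the same treatment were paired by number was not tested. By treatment and number, Tgfb2 and Inhbb were higher and Fstl3 lower in deleted stroma in all 4 pairs, as were 18.8% of all tested genes in either direction. With the replicate block in edgeR, 6 members were called in control (adding Inhbb, adjusted p = 0.0480, and Fst, 0.0265) and 3 in deleted stroma, among 4094 and 3423 genes, and none for deletion. Tgfb1, at 0 to 5 counts, was too low to test.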

Other observations

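For each tested member the genes with the most similar pattern were taken as those with the smallest root mean square (RMS) difference in log2 CPM centred over the 8 libraries, among tested genes of at least 10 CPM on average. The libraries share treatment, cell mix and depth, so this is a description with no test. The gene nearest to Inhba was Prlr, the prolactin receptor, with an RMS difference of 0.147 log2 units where Inhba itself varied by 0.760 around its mean. Next to it came Rgmb, a co-receptor for bone morphogenetic proteins, at 0.185. Nearest to Inhbb was Mmd at 0.103, and nearest to Fst was Rbm24, an RNA-binding protein, at 0.146.

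Fstl3 lay nearest to Nap1l1, a histone chaperone, at 0.0679, and Tgfbr2 to Polr2d, a subunit of RNA polymerase II, at 0.140. The gene nearest to Tgfbr1 was Hexdc at 0.0974, followed by Prnp, the prion protein gene, at 0.0984. Tgfbi varied most, by 1.62 log2 units around its mean, and its nearest genes, Iffo2 at 0.296 and Enpp1 at 0.301, were the least close of these. Tgfb2 was nearest to Prkce, a protein kinase C, at 0.117, and Tgfb3, which varied least (0.263), to Tpra1 at 0.0849.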
